A study of Mus musculus with 14 samples.

Results

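RNA levels of 9 genes of iron storage and transport were measured in the mouse brain 48 h after stroke. They were listed by symbol, with earlier results of these data known, and all 9 were found among the 46904 genes of the deposited RPKM table (reads divided by gene length and library size). They were Fth1 and Ftl1 (ferritin storage), Trf, Tfrc and Slc11a2 (transferrin and uptake), Slc11a1 (phagosomal transport), and Slc40a1, Cp and Heph (export). All 9 were above 0 in at least 2 libraries and entered the test.

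The 14 libraries came from brain hemispheres of male mice on a C57BL/6J background, 12 weeks old, in which the left middle cerebral artery had been closed by a filament for 20 min (middle cerebral artery occlusion, MCAO) and reopened. They formed 4 groups: the contralateral hemisphere (CL) and the ischemic hemisphere (MCAO) of Cort+/+ mice, with 3 libraries each, and CL with 3 and MCAO with 5 libraries of Cort-/- mice, which are deficient in Cort, the gene of the neuropeptide cortistatin. The CL hemisphere is the uninjured side of operated brains, so no unoperated tissue stands behind the comparisons. Whole hemispheres were sequenced, so infarct and spared tissue are mixed. Whether a CL and an MCAO library came from the same animal is not given in the sources used here.

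Iron enters most brain cells as transferrin, the plasma and glial carrier encoded by Trf, bound to the transferrin receptor encoded by Tfrc, and leaves the endosome through the divalent metal transporter encoded by Slc11a2. Iron not in use is stored in ferritin, a hollow shell of heavy chains (Fth1, with ferroxidase activity) and light chains (Ftl1, which help the mineral core to form). Ferroportin, encoded by Slc40a1, is the known cellular iron exporter, and the copper ferroxidases ceruloplasmin (Cp) and hephaestin (Heph) oxidize the iron it releases. Macrophages and microglia also carry the phagosomal metal transporter encoded by Slc11a1, known for its part in resistance to intracellular microbes.

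Part of this system is controlled after transcription, through hairpins in the mRNA called iron-responsive elements that iron regulatory proteins bind when iron is scarce. In a 5′ UTR the bound protein blocks translation, and in the 3′ UTR of Tfrc it protects the mRNA from decay. RNA levels therefore need not follow protein levels for these genes. The hairpins are shown because RNA that carries them is a direct target of this control. The motif CNNNNNCAGTGN, with a last letter other than G and with the 5 bases before the loop paired to the 5 after it (G with T allowed), was searched on the transcript strand of GENCODE M39 transcripts on GRCm39, and the 6 loop bases are in capitals. Fth1 held 1 match in its 5′ UTR (chr19:9960096-9960124, plus strand), Ftl1 held 1 in its 5′ UTR (chr7:45109203-45109231, minus strand) and Slc40a1 held 1 in its 5′ UTR (chr1:45964625-45964653, minus strand). Tfrc held 4 in its 3′ UTR, all on the plus strand (chr16:32450037-32450065, chr16:32450416-32450444, chr16:32450481-32450509 and chr16:32450528-32450556).
Fth1 5′ UTR: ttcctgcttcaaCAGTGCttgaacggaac
Ftl1 5′ UTR: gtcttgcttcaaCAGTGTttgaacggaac
Slc40a1 5′ UTR: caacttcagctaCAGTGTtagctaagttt
Tfrc 3′ UTR, site 1: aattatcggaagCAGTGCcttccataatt
Tfrc 3′ UTR, site 2: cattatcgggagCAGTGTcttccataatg
Tfrc 3′ UTR, site 3: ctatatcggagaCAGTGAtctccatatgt
Tfrc 3′ UTR, site 4: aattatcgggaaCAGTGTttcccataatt
The same motif was present in 0.173% of the 5′ UTRs of 20781 genes and in 0.592% of the 3′ UTRs of 20932 genes. Among UTRs of 0.8 to 1.25 times the length it was present in 0.291% (length of Fth1), 0.115% (Ftl1), 0.265% (Slc40a1) and, for the 3′ UTR of Tfrc, 1.01%. These letters were not found in the UTRs of the other 5 members. Slc11a2 is nevertheless known to carry an iron-responsive element in the 3′ UTR of some of its transcripts, of a variant form with an additional unpaired base that this motif does not match.

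The 14 libraries held 25991115 to 43034554 reads on genes, with a median of 36028753, recovered from the steps of the RPKM values. The genotype labels held: Cort had 64 to 139 reads in the Cort+/+ libraries and 0 to 4 in the Cort-/- libraries. Neuron, astrocyte and oligodendrocyte markers were above 0 in every library, as in brain tissue. Within the CL groups, Cort+/+ replicate 1 and Cort-/- replicate 2 stood apart in the summed RPKM of 4 reactive astrocyte markers (222 and 189, against 62.8 to 83.5 in the other 4 CL libraries), and among the ischemic libraries Cort+/+ replicate 4 was the lowest (204, against up to 729).

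The members differed widely in RPKM, a scale that divides by gene length and so allows levels of different genes to be compared. In CL tissue of Cort+/+ mice the mean RPKM was 1042 ± 110.3 for Fth1, 194 ± 24.5 for Ftl1, 116 ± 18.4 for Trf, 22.7 ± 4.37 for Tfrc and 9.25 ± 0.578 for Slc11a2 (SD, n = 3). The other 4 members were low, with mean RPKM of 3.16 ± 0.953 for Cp, 2.14 ± 0.298 for Slc40a1, 2.05 ± 0.409 for Heph and 1.24 ± 0.226 for Slc11a1 (SD, n = 3). From Fth1 down to Slc11a2 the order was the same in all 4 groups, and the ranges of neighbours did not overlap, except that Ftl1 and Trf overlapped in the ischemic Cort-/- libraries. Among the low members, Cp and Slc40a1 overlapped in Cort+/+ CL, Slc40a1 and Heph overlapped in both CL groups, and Slc11a1, last in both CL groups, overlapped with Slc40a1 in both MCAO groups, where Heph was last and overlapped with the member above it. The low members had at least 77 reads in every library (the lowest was Slc11a1), against 39231 or more for Fth1.

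**Figure D1:**
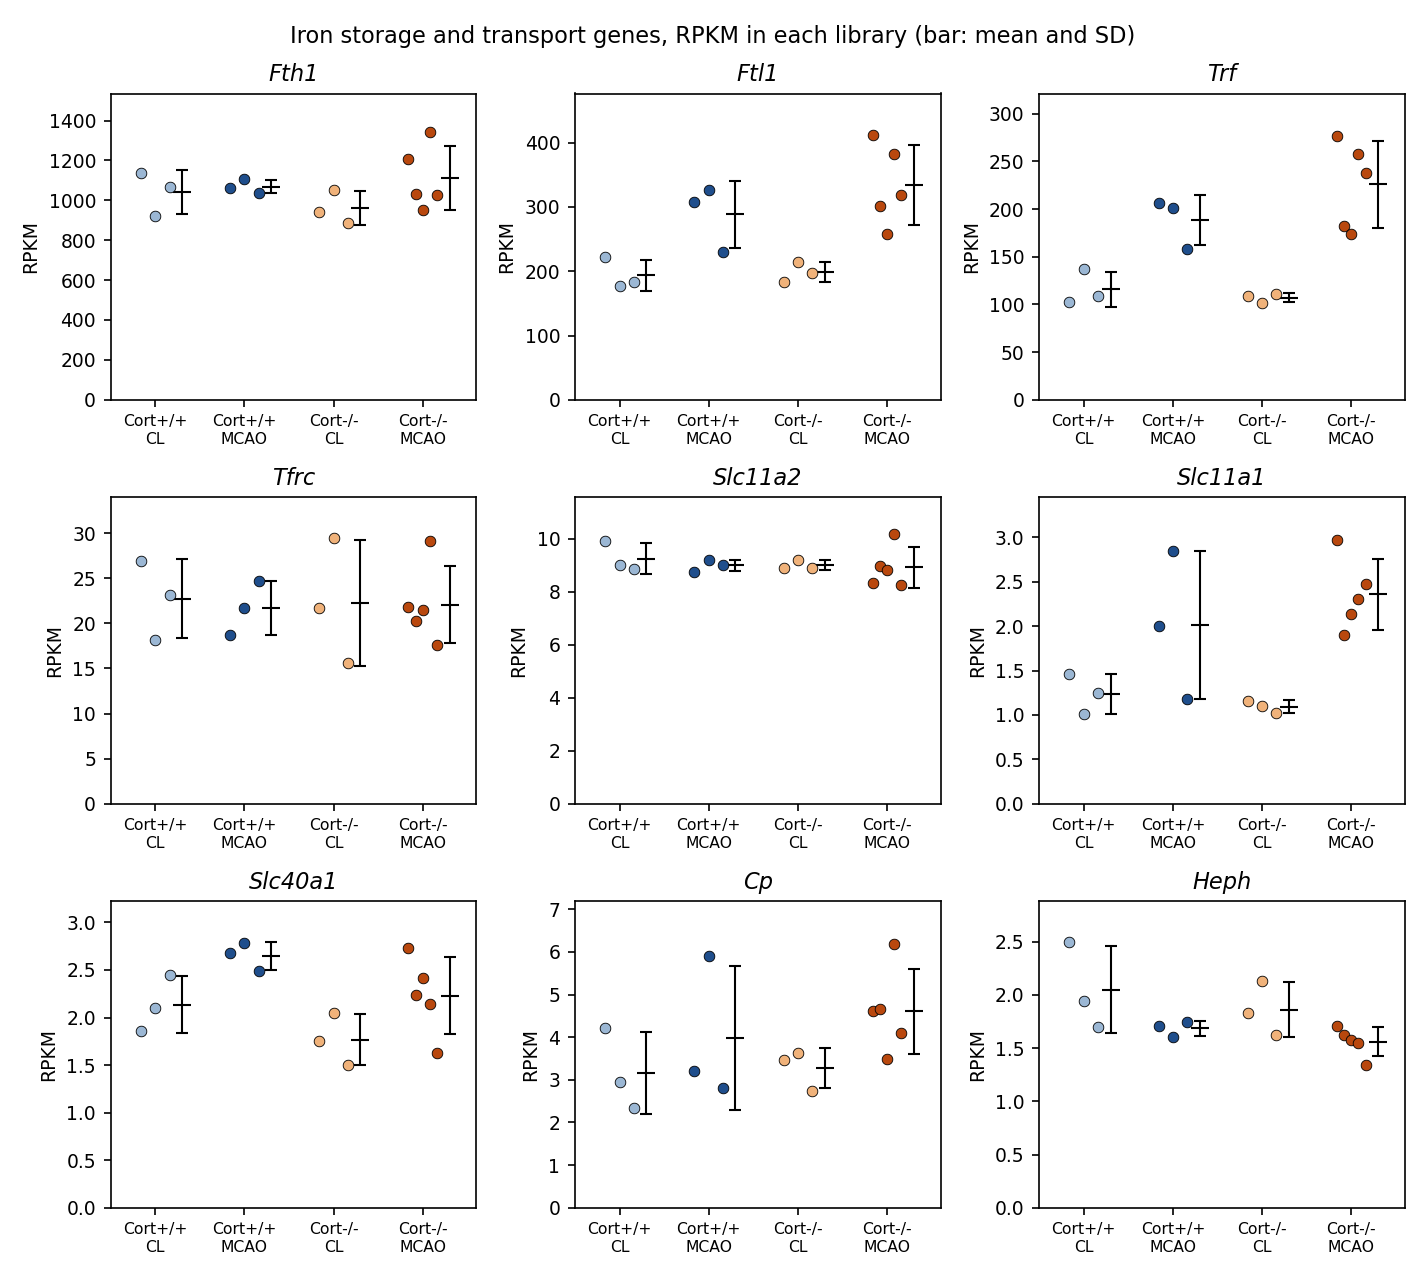
RPKM (y axis, linear, from 0) of each of the 9 genes in every library of the 4 groups (x axis), with bars for mean and SD beside the points. Ftl1 and Trf are higher in every ischemic library than in every contralateral library, Slc11a1 is higher in all 5 ischemic Cort-/- libraries (1.90 to 2.97) than in any contralateral library, and Tfrc and Slc11a2 overlap in all groups.

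The first question was how stroke changed these genes within each genotype. In brief, RNA of the ferritin light chain, of transferrin and of the phagosomal transporter was higher in the ischemic hemisphere, whereas RNA of the ferritin heavy chain, of the transferrin receptor and of the divalent metal transporter gave no call. Differences between groups are given as log2 fold changes of RPKM + 0.1, tested by limma over 46102 genes with Benjamini-Hochberg adjustment, and a gene was called at an adjusted p under 0.05. In bulk RNA, more cells of a type and more RNA per cell cannot be told apart. In Cort-/- mice 3 of 9 members were called higher and 0 lower, where 1.34% of all genes were called higher and 0.382% lower. All 9 members had a mean of at least 1 RPKM. Of the 15063 genes with such a mean, 459 were called higher and 155 lower. In Cort+/+ mice limma called 0 of 9 members and 0.0108% of all genes, while 3 of 9 members (Ftl1, Trf and Slc11a1) had an unadjusted p under 0.05, as did 7.87% of all genes. Of those 15063 genes, 3 were called higher and 0 lower, and 1817 had an unadjusted p under 0.05. Taken as the mean over both genotypes, 3 of 9 members were called higher, against 2.52% of all genes, and 5 of 9 (with Slc40a1 and Heph) had an unadjusted p under 0.05, against 14.9%. Of those 15063 genes, 837 were called higher and 4341 had an unadjusted p under 0.05. The median log2 fold change of the 9 members was 0.29 in Cort+/+ mice, 0.31 in Cort-/- mice and 0.31 as the mean over genotypes, beside 0.00 over all genes in each of these comparisons.

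Of the storage genes, Ftl1 was higher after stroke and Fth1 gave no call. Ftl1 RPKM was 222, 176 and 183 in the CL libraries of Cort+/+ mice and 308, 327 and 229.9 in their MCAO libraries. The Cort-/- libraries had 183, 214 and 198 in CL and 411, 302, 259, 382 and 318 in MCAO. Every ischemic library thus lay above every CL library in both genotypes, a pattern that 1.72% of all genes showed over the 14 libraries, although the lowest ischemic value (229.9) was close to the highest CL value (222). The log2 fold change of Ftl1 was 0.74 ± 0.15 (SE) in Cort-/- mice (limma adjusted p = 0.0296), 0.57 ± 0.17 in Cort+/+ mice (adjusted p = 0.338) and 0.65 ± 0.11 as the mean over genotypes (adjusted p = 0.00739). The call in Cort-/- mice was lost when any CL library of that genotype was left out (adjusted p 0.138, 0.0663 and 0.112 without replicates 1, 2 and 3) and without its MCAO replicate 1, 4 or 5 (0.0688, 0.0715 and 0.0576), whereas that over both genotypes was kept in all 14 fits that left out 1 library.

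Fth1 was the most abundant member throughout. The genome holds processed copies of both ferritin genes, and how reads shared with them were counted is not given in the sources used here. Its RPKM was 1138, 922 and 1066 in CL and 1064, 1105 and 1038 in MCAO of Cort+/+ mice. Cort-/- libraries had 943, 1052 and 888 in CL and 1206, 1030.5, 953, 1342 and 1027 in MCAO. The groups overlapped in both genotypes. Over both genotypes the log2 fold change was 0.12, with a 95% interval from -0.05 to 0.30 (limma adjusted p = 0.559). In Cort+/+ mice alone it was 0.04, and it turned to -0.04 without CL replicate 2 and to -0.04 after quantile normalization. In Cort-/- mice alone it was 0.20 (limma adjusted p = 0.488), and ran from 0.13 to 0.27 when each library was left out in turn.

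The light chain made up a larger share of ferritin RNA on the ischemic side. As a percentage of the summed RPKM of Fth1 and Ftl1, Ftl1 made up 15.7 ± 0.897% in CL and 21.1 ± 2.62% in MCAO of Cort+/+ mice (SD, n = 3 each). The share in Cort-/- mice was 17.1 ± 0.993% in CL (n = 3) and 23.0 ± 1.57% in MCAO (n = 5). Within each genotype the groups did not overlap (at most 16.3% against at least 18.1%, and at most 18.2% against at least 21.4%). Expressed as a ratio, Fth1 RPKM was 5.40 times that of Ftl1 in CL and 3.78 times in MCAO of Cort+/+ mice, and 4.85 and 3.35 times in Cort-/- mice. This ratio is a description and was not tested. Gm56125, an annotated miRNA inside Ftl1 on the same strand, held 2285 to 6760 reads a library, against 5905 to 17336 for Ftl1. How reads shared by these genes were counted is not given in the sources used here. The level of Ftl1, and with it the share and the ratio, is therefore uncertain.

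Of the genes of iron delivery, Trf had the lowest adjusted p. Trf RPKM was 102, 137 and 108 in CL and 206, 201 and 158 in MCAO of Cort+/+ mice. For Cort-/- mice the values were 109, 102 and 111 in CL and 277, 182, 174, 258 and 238 in MCAO. Every ischemic library was above every CL library in both genotypes, and the lowest ischemic value (158) exceeded the highest CL value (137). The mean RPKM in MCAO was 2.11 times that in CL in Cort-/- mice and 1.62 times in Cort+/+ mice. The log2 fold change was 1.05 ± 0.15 (SE) in Cort-/- mice (limma adjusted p = 0.00904), 0.70 ± 0.17 in Cort+/+ mice (adjusted p = 0.243) and 0.88 ± 0.12 over both genotypes (adjusted p = 0.00194). Trf in Cort-/- mice was called in all 14 fits that left out 1 library, with an adjusted p of at most 0.0430.

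Tfrc, the receptor for transferrin, spread widely within groups. Its RPKM was 26.9, 18.2 and 23.2 in CL and 18.7, 21.7 and 24.6 in MCAO of Cort+/+ mice. In Cort-/- mice it was 21.7, 29.5 and 15.6 in CL and 21.8, 20.2, 21.5, 29.1 and 17.6 in MCAO. All groups overlapped, and the highest and lowest values of all 14 libraries stood together in the CL group of Cort-/- mice. The log2 fold change over both genotypes was -0.02, with a 95% interval from -0.34 to 0.30 (limma adjusted p = 0.979), so differences of that size were not resolved.

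Slc11a2, the endosomal transporter, was at 8.27 to 10.2 RPKM in all 14 libraries, and its groups overlapped. Its log2 fold change over both genotypes was -0.03, with a 95% interval from -0.13 to 0.08 (limma adjusted p = 0.881). Its relative Slc11a1 was higher after stroke. Slc11a1 RPKM was 1.46, 1.01 and 1.25 in CL and 2.00, 2.85 and 1.18 in MCAO of Cort+/+ mice. Those of Cort-/- mice were 1.16, 1.10 and 1.02 in CL and 2.97, 1.90, 2.13, 2.31 and 2.47 in MCAO. The groups did not overlap in Cort-/- mice, where 4.85% of all genes lay higher without overlap, but in Cort+/+ mice MCAO replicate 4 (1.18) fell among the CL libraries.

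The log2 fold change of Slc11a1 was 1.03 ± 0.22 (SE) in Cort-/- mice (limma adjusted p = 0.0360), 0.59 ± 0.25 in Cort+/+ mice (adjusted p = 0.570) and 0.81 ± 0.16 over both genotypes (adjusted p = 0.0168). The value in Cort+/+ mice was 0.91 without MCAO replicate 4 (adjusted p = 0.0979) and 0.31 without MCAO replicate 3 (adjusted p = 0.912). The call over both genotypes was kept in all 14 fits that left out 1 library. That in Cort-/- mice was lost without CL replicate 1, 2 or 3 of this genotype (adjusted p 0.117, 0.101 and 0.138) and without its MCAO replicate 1, 4 or 5 (0.0906, 0.0769 and 0.0766). It was also lost without Cort+/+ CL replicate 3 or MCAO replicate 2, which share the estimate of spread (0.0540 and 0.0533), and with a pseudocount of 1 in place of 0.1 (0.0549).

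None of the export genes was called by limma in any comparison. Slc40a1 RPKM was 1.86, 2.10 and 2.45 in CL and 2.67, 2.78 and 2.49 in MCAO of Cort+/+ mice, which did not overlap, as for 5.73% of all genes in this direction. Cort-/- libraries had 1.76, 2.04 and 1.50 in CL and 2.73, 2.23, 2.41, 2.14 and 1.63 in MCAO, where MCAO replicate 5 lay within the CL range. Its log2 fold change over both genotypes was 0.31, with a 95% interval from 0.07 to 0.55 (limma unadjusted p = 0.0154, adjusted p = 0.184).

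Cp was 2.34 to 4.21 RPKM in CL and 2.82 to 5.91 in MCAO of Cort+/+ mice, and 2.74 to 3.64 and 3.50 to 6.18 in Cort-/- mice, and the groups overlapped in both. Its log2 fold change over both genotypes was 0.38 (95% interval -0.02 to 0.77, limma adjusted p = 0.371). In Cort+/+ mice it was 0.29, and -0.03 without MCAO replicate 3, the library with the highest value of that group. Cp shares a stretch of chromosome 3 with Hps3 on the opposite strand, and whether strand was used in counting is not given in the sources used here. Heph had lower group means in MCAO in both genotypes. It ranged from 1.70 to 2.50 RPKM in CL and from 1.61 to 1.75 in MCAO of Cort+/+ mice, and from 1.63 to 2.14 and 1.34 to 1.71 in Cort-/- mice. Its log2 fold change over both genotypes was -0.24 (95% interval -0.44 to -0.04, limma unadjusted p = 0.0206, adjusted p = 0.215).

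**Figure D2:**
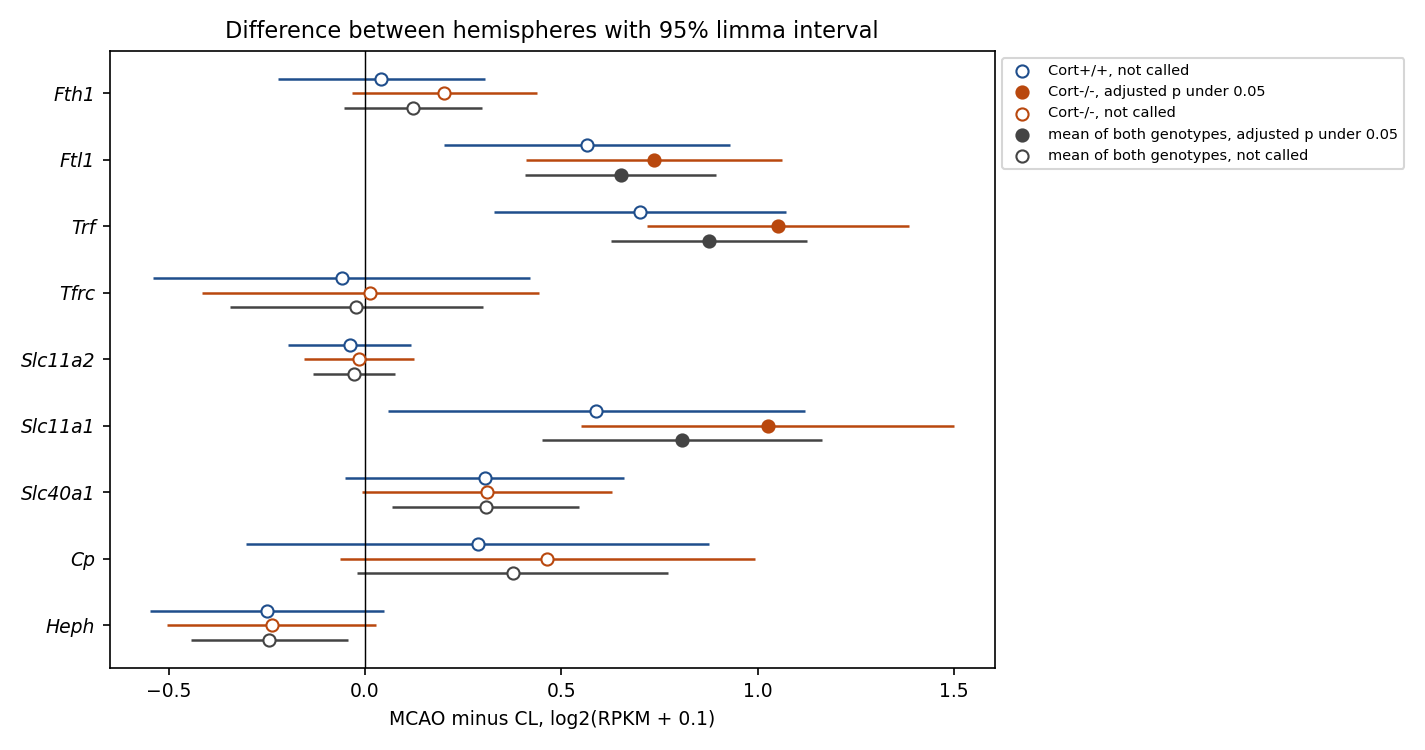
Difference between hemispheres (x axis, MCAO minus CL on log2(RPKM + 0.1), with 95% limma intervals) for the 9 genes (y axis) in Cort+/+ mice, in Cort-/- mice and as the mean over genotypes; filled points had an adjusted p under 0.05. Ftl1, Trf and Slc11a1 are filled in Cort-/- mice and over both genotypes, and the intervals of Tfrc and Slc11a2 lie on both sides of 0 throughout.

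Markers of several cell types moved with these differences. The summed RPKM of 7 microglia markers was 95.2 to 104 in CL and 126 to 197 in MCAO of Cort+/+ mice, and 95.9 to 112 and 144 to 216 in Cort-/- mice. By limma 6 of these 7 markers were called higher over both genotypes, and 4 in Cort-/- mice. The ischemic library with the lowest sum (Cort+/+ replicate 4, 126) had the lowest ischemic Ftl1, Trf and Slc11a1, and the library with the highest sum (Cort-/- replicate 1, 216) had the highest Ftl1, Trf and Slc11a1. The sum of 7 markers of infiltrating myeloid cells was 7.47 to 16.4 in CL and 14.3 to 27.3 in MCAO of Cort+/+ mice, and 9.53 to 18.2 and 19.6 to 57.3 in Cort-/- mice (2 of 7 called over both genotypes). Its largest part was Lyz2, with mean RPKM of 7.06 in CL and 15.3 in MCAO of Cort+/+ mice, and 6.78 and 23.4 in Cort-/- mice. Over both genotypes 6 of 7 had a log2 fold change above 0. Mean S100a9 was 2.00 in CL and 1.79 in MCAO of Cort+/+ mice. The ischemic extremes of this myeloid sum were also Cort+/+ replicate 4 (14.3, lowest) and Cort-/- replicate 1 (57.3, highest). The sum of 4 reactive astrocyte markers was 62.8 to 222 and 204 to 540 in Cort+/+ mice. In Cort-/- mice it was 81.4 to 189 and 246 to 729 (2 of 4 called over both genotypes). Its ischemic extremes were Cort+/+ replicate 4 (204, lowest) and Cort-/- replicate 4 (729, highest). The part of these cells in the differences of Ftl1, Trf and Slc11a1 was not tested.

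Oligodendrocytes, which are known to make much of the transferrin RNA in the brain, gave no call after stroke. The summed RPKM of 7 oligodendrocyte markers was 1108 to 1161 in CL and 905 to 1108 in MCAO of Cort+/+ mice, and 899 to 1093 and 890.0 to 1049 in Cort-/- mice, with 0 of 7 called over both genotypes by limma (3 at an unadjusted p under 0.05). As a percentage of this sum, Trf RPKM was 10.3 ± 1.77% in CL and 18.6 ± 4.01% in MCAO of Cort+/+ mice (SD, n = 3 each), and 10.7 ± 0.701% (n = 3) and 22.7 ± 5.30% (n = 5) in Cort-/- mice. This percentage did not overlap between CL and MCAO in either genotype (9.22 to 12.3% against 14.3 to 22.2%, and 9.95 to 11.3% against 16.6 to 29.0%). Choroid plexus markers, of which the epithelium is another known source of Trf, summed to 295 to 448 in the CL and 302 to 500.3 in the MCAO libraries, with 0 of 6 called by limma (1 at an unadjusted p under 0.05).

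Other lists had smaller median log2 fold changes or were uncalled over both genotypes. By limma 2 of 6 endothelial and 2 of 6 astrocyte markers were called higher. Of 6 neuron markers 0 were called (3 at an unadjusted p under 0.05). The endothelial sum was 37.7 to 41.5 in CL and 42.1 to 44.7 in MCAO of Cort+/+ mice. In Cort-/- mice the endothelial sum was 30.6 to 34.4 and 41.3 to 55.7, so CL and MCAO did not overlap within either genotype. The median log2 fold change of the 6 endothelial markers was 0.31 over both genotypes and 0.47 in Cort-/- mice. The median log2 fold change of the 6 astrocyte markers was -0.02. Their summed RPKM was 752 to 832 in CL and 738 to 801 in MCAO of Cort+/+ mice, and 734 to 777 and 669.8 to 739.6 in Cort-/- mice. Red blood cell markers, of interest for iron handling, summed to 125 to 329.6 in CL and 97.0 to 257 in MCAO of Cort+/+ mice. In Cort-/- mice they summed to 91.0 to 141 and 87.4 to 186. Over both genotypes 0 of 5 were called between hemispheres (0 at an unadjusted p under 0.05). No marker of any list was at 0 in any library.

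**Figure D3:**
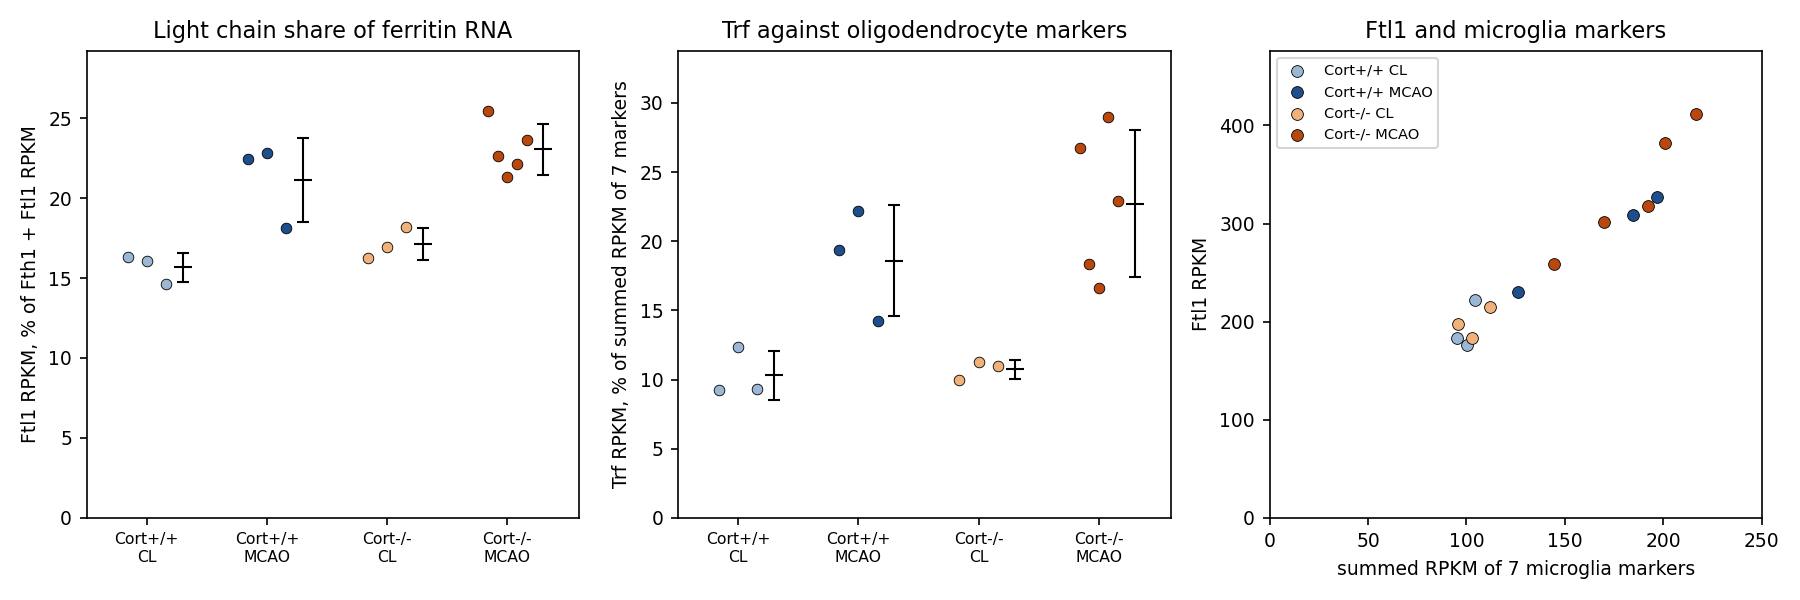
Left, Ftl1 as % of the summed RPKM of Fth1 and Ftl1; middle, Trf RPKM as % of the summed RPKM of 7 oligodendrocyte markers (points are libraries, bars mean and SD); right, Ftl1 RPKM (y axis) against the summed RPKM of 7 microglia markers (x axis) in the 14 libraries. Both percentages are higher in the ischemic than in the contralateral libraries within each genotype, and the ischemic libraries extend the range of Ftl1 from 229.9 to 411 RPKM while the marker sum runs from 126 to 216.

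The second question was whether loss of Cort changed the iron genes, in the contralateral or in the ischemic hemisphere of operated brains. In CL tissue limma called 0 of 9 members between genotypes, where 0.0152% of all genes were called, and 0 had an unadjusted p under 0.05, where 3.91% of all genes did. In MCAO tissue it also called 0 of 9, beside 0.0174% of all genes, and 0 had an unadjusted p under 0.05, beside 3.82%. Cort itself, the check of the genotype, was called in both. The 5 red blood cell markers had a median log2 difference (Cort-/- minus Cort+/+) of -0.85 in CL and -0.29 in MCAO tissue. By limma 0 of these 5 were called in either tissue, with 2 in CL and 0 in MCAO at an unadjusted p under 0.05. Whether blood content bears on the members was not tested.

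For the 3 members that were higher after stroke, the interval of the genotype difference in MCAO tissue shows what the libraries could resolve. The mean RPKM of Trf was 226 ± 45.5 in Cort-/- (SD, n = 5) and 188 ± 26.3 in Cort+/+ libraries (n = 3), a log2 difference of 0.25 with a 95% interval from -0.09 to 0.58. That of Ftl1 was 334 ± 61.8 and 288 ± 51.6, a log2 difference of 0.21 with an interval from -0.12 to 0.54. That of Slc11a1 was 2.36 ± 0.401 and 2.01 ± 0.833, a log2 difference of 0.29 with an interval from -0.19 to 0.76. Without Cort+/+ MCAO replicate 4 these differences were 0.13 for Trf, 0.05 for Ftl1 and -0.03 for Slc11a1, and without Cort+/+ MCAO replicate 3 they were 0.30, 0.31 and 0.57, with no call in any fit that left out 1 library. The genotypes overlapped for all 9 members in CL tissue, where 3.9% of all genes were higher and 2.35% lower in Cort-/- mice without overlap, and in MCAO tissue, where 0.861% were higher and 1.56% lower.

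Slc40a1 was the member with the lowest unadjusted p in both genotype comparisons. Its mean RPKM was lower in Cort-/- than in Cort+/+ tissue on both sides, 1.77 ± 0.270 against 2.14 ± 0.298 in CL (SD, n = 3 each) and 2.23 ± 0.407 (n = 5) against 2.65 ± 0.147 (n = 3) in MCAO. The log2 differences were -0.26 (95% interval -0.62 to 0.09) and -0.26 (-0.57 to 0.06), and neither was called (limma unadjusted p = 0.136 and 0.104). They were -0.16 without Cort-/- CL replicate 3 and -0.15 without Cort-/- MCAO replicate 5.

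The calls in Cort-/- mice and their absence in Cort+/+ mice do not by themselves show a difference between genotypes, so that difference was tested as an interaction. The response to stroke differed between genotypes by a log2 value of 0.35 for Trf (95% interval -0.15 to 0.85), 0.44 for Slc11a1 (-0.28 to 1.15) and 0.17 for Ftl1 (-0.32 to 0.66). When each library was left out in turn, these values ran from 0.23 to 0.44, from 0.12 to 0.72 and from 0.02 to 0.27, and without Cort+/+ MCAO replicate 4 they were 0.23, 0.12 and 0.02. By limma 0 of 9 members were called, beside 0.00217% of all genes, and 0 had an unadjusted p under 0.05, beside 3.31%. The median of the 9 interaction estimates was 0.16, against -0.01 over all genes.

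Other genes of iron and heme handling were taken from a list of 43, of which 42 were tested and Ftmt was not analysed here. Over both genotypes 5 of 42 were called higher by limma and 0 lower, beside 2.52% of all genes higher and 0.902% lower, and the median log2 fold change of the list was 0.04. In Cort-/- mice 3 were called higher and 0 lower: Steap3 (log2 fold change 0.59, adjusted p = 0.0296), Blvrb (0.41, 0.0460) and Blvra (0.29, 0.0415). When each library was left out in turn, these 3 were called in 9, 1 and 5 of 14 fits, with adjusted p up to 0.127, 0.207 and 0.183. Under 11 other settings of the processing they were called in 9, 7 and 8, with adjusted p up to 0.0696, 0.107 and 0.0923. All 3 calls were lost after quantile normalization and when only the groups compared were fitted. In Cort+/+ mice 0 were called (6 at an unadjusted p under 0.05), and between genotypes and for the interaction 0 were called, with 1 in CL, 1 in MCAO and 1 for the interaction at an unadjusted p under 0.05.

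Of these 5, 3 belong to heme breakdown. Hmox1, the stress-induced heme oxygenase that frees iron from heme, was 2.25 to 4.34 RPKM in CL and 3.42 to 10.6 in MCAO of Cort+/+ mice, and 2.53 to 4.06 and 5.76 to 14.8 in Cort-/- mice. Its log2 fold change over both genotypes was 1.33 ± 0.28 (SE, limma adjusted p = 0.0211), with a call in 8 of the 14 fits that left out 1 library. The call was lost without Cort-/- CL replicate 1 or 3, Cort+/+ CL replicate 2 or 3, or Cort+/+ MCAO replicate 2 or 3 (adjusted p up to 0.0631). The biliverdin reductases, which carry out the next step, had smaller log2 fold changes: Blvrb by 0.36 ± 0.07 (adjusted p = 0.0136) and Blvra by 0.20 ± 0.05 (adjusted p = 0.0456), the latter called in 2 of those 14 fits. Blvra over both genotypes was also not called after quantile normalization, with library weights or by voom on recovered reads (adjusted p up to 0.114). Hmox2, the constitutive oxygenase, was not called.

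Of the 4 ferrireductases, Steap3, known for reducing iron in the transferrin endosome, was called higher. It was 0.742 to 0.983 RPKM in CL and 1.13 to 1.36 in MCAO of Cort+/+ mice, and 0.812 to 0.919 and 1.19 to 1.57 in Cort-/- mice, with a log2 fold change of 0.54 ± 0.09 over both genotypes (limma adjusted p = 0.00660). Of the 4 other carriers, Slc39a8, a metal importer, rose by 0.40 ± 0.08 (limma adjusted p = 0.0152). Blvrb, Steap3 and Slc39a8 were each called over both genotypes in all 14 fits that left out 1 library.

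In the other 4 groups of the list limma called no gene over both genotypes. These were 8 systemic regulators (2 at an unadjusted p under 0.05), 6 genes of iron sensing and ferritin handling (2), 8 of hemoglobin, heme and iron scavenging (1) and 4 of mitochondrial iron and iron-sulfur assembly (0). Over all 42 genes of the list, the largest uncalled log2 fold changes among those that averaged 1 RPKM or more were 1.56 for the siderophore-binding Lcn2 (limma adjusted p = 0.333), 0.54 for Hfe (0.130), 0.24 for Slc46a1 (0.0862), 0.21 for Slc39a14 (0.261) and 0.15 for Bmp6 (0.390).

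**Figure D4:**
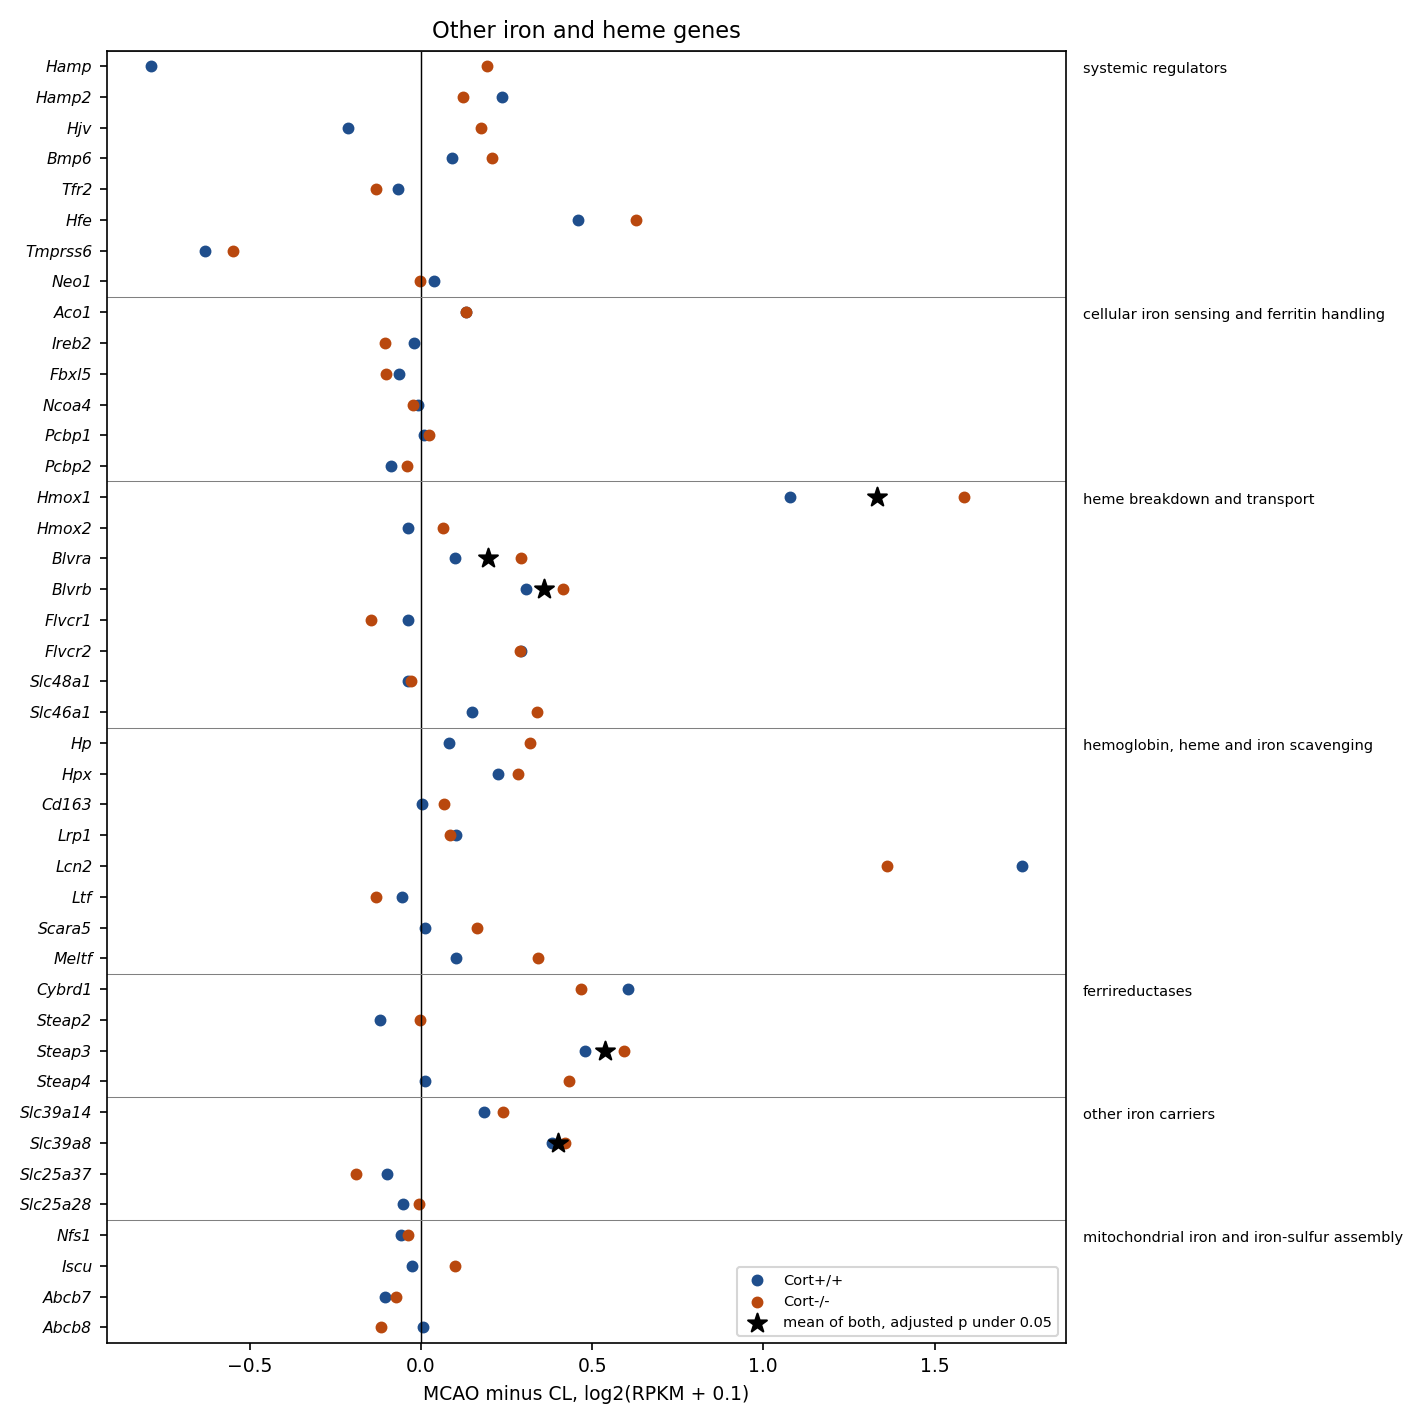
Difference between hemispheres (x axis, MCAO minus CL on log2(RPKM + 0.1)) for the 42 other iron and heme genes (y axis, grouped by role) in Cort+/+ and Cort-/- mice, with stars at the mean of both genotypes for the 5 genes called over both. Hmox1 lies farthest to the right of the starred genes, at 1.33.

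The genes most like each member across the 14 libraries were named by Pearson's r of log2(RPKM + 0.1) among 15062 genes, as a description, since the libraries share hemisphere and genotype. Ftl1 was most like C1qa, a complement gene of microglia (r = 0.997, with 0.992 within the 8 ischemic and 0.980 within the 6 CL libraries). Next came Gm56125 (r = 0.995), a 109-base annotated miRNA on the same strand inside Ftl1 (chr7:45107513-45107621), for which reads of the 2 genes cannot be told apart. C1qa was 36.0 to 57.1 RPKM in CL and 56.6 to 163 in MCAO libraries. Trf was most like Lap3 and Itgam, the latter an integrin chain of myeloid cells (both r = 0.975, with 0.915 and 0.905 within the ischemic libraries and 0.731 and 0.664 within the 6 CL libraries). Against the summed microglia markers, r of Trf was 0.897 within the ischemic and -0.370 within the CL libraries. The same r was 0.952 and 0.588 for Ftl1, and 0.867 and 0.131 for Slc11a1. Against the summed reactive astrocyte markers, r was 0.950 and 0.949 for Ftl1, 0.877 and -0.622 for Trf, and 0.788 and 0.511 for Slc11a1. Against the summed infiltrating myeloid markers, r was 0.918 and 0.848 for Ftl1, 0.863 and -0.703 for Trf, and 0.764 and 0.405 for Slc11a1. Against the summed neuron markers, r was -0.699 and -0.300 for Ftl1, -0.765 and -0.304 for Trf, and -0.665 and 0.353 for Slc11a1. Slc11a1 was most like Tnfaip8l2 (r = 0.968) and the myeloid signalling chain gene Fcer1g (r = 0.967), with 0.911 and 0.915 within the ischemic and 0.989 and 0.906 within the CL libraries.

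The members that gave no call had other partners. Fth1 was most like Msrb1 (r = 0.962) and Igbp1 (r = 0.938), Tfrc like 2610029K11Rik (r = 0.950) and Usp2 (r = 0.935), and Slc11a2 like Clpx (r = 0.894) and Sun1 (r = 0.882). Of the export genes, Slc40a1 was most like Clec2d (r = 0.909) and the oligodendrocyte lineage factor gene Sox10 (r = 0.874), Cp like the complement inhibitor gene Serping1 (r = 0.941) and Tead3 (r = 0.934), and Heph like Zfp358 (r = 0.928) and Paip2b (r = 0.912). No gene was named for more than 1 member.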

How the data were processed

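Poly(A) RNA of 14 brain hemispheres was sequenced (100 bp, paired-end, stranded library kit). The authors processed the reads with reanalyzerGSE on GRCm39 with GENCODE M28 and deposited 1 table of RPKM values per gene and library; the aligner, the counter and the use of strand are not given in the sources used here. The methods state that 5 MCAO libraries per genotype were made and that replicates which did not group clearly could be left out, which can narrow the spread within a group. For Cort+/+ MCAO the table used here holds replicates 2, 3 and 4.

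Whole reads were recovered from the RPKM steps (100% of 495656 values above 0, tolerance 0.0001). Genes above 0 in at least 2 libraries (46102) were tested on log2(RPKM + 0.1) with limma 3.58.1 in R 4.3.3, with 1 model of 4 groups and two-sided moderated tests with an intensity trend. Fold changes on this scale understate those of low genes. Gene positions, UTRs and sequences came from GENCODE M39 on GRCm39. The fit was tested on simulated reads. Of 100 genes changed 2-fold it recovered 61% in Cort+/+ mice, 78% in Cort-/- mice and 96% over both genotypes. False calls numbered 10, 18 and 21. The simulated spread between libraries was set beforehand, so these shares need not hold for the real libraries. Independent animals are stated for the replicates of a group, and none of 19 replicate pairs agreed within sampling noise.

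All 9 members were named. The list of other iron and heme genes used here holds 43 genes, of which 42 were tested, and 1 gene outside these 43 is not reported here. Of the 43, those called in any comparison and then the largest differences with a mean of at least 1 RPKM were named, up to 10, and for each member the 2 genes most like it. Members and lists were chosen with earlier results of these data known. Alternatives were other pseudocounts, filters, scalings, weights, a replicate block, voom on recovered reads, only the groups compared, and leaving out each library.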

Additional observations from a re-analysis of the deposited data

Results flagged for a closer look

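Among the ischemic Cort-/- libraries, the 19 named iron and heme genes were each searched for a library far from the other 4, which chance alone gives in about 1 of 20 groups. Blvra was lowest in replicate 5, at 10.2 RPKM against 11.5 to 11.7 in the others. Lcn2 was highest in replicate 4, at 30.8 RPKM against 0.993 to 7.81 in the others. None of the 9 storage and transport genes had such a library.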

How the results depend on the processing

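Over both genotypes, 3 of 9 members were called under all 10 alternatives and in all 14 fits that left out 1 library. In Cort-/- mice the count was 2 to 3 under 11 alternatives, and from 1 to 3 when each library was left out. In Cort+/+ mice, between genotypes and for the interaction it was 0 under every alternative run. All genes called in Cort-/- mice numbered 792, with 528 to 1294 under the alternatives and 133 to 1191 when 1 library was left out (133 without CL replicate 1, which leaves 2 CL libraries). In Cort+/+ mice they numbered 5, with 1 to 57 and 3 to 160 (160 without MCAO replicate 4), and over both genotypes 1579, with 1430 to 2180 and 941 to 1913. Between genotypes they numbered 7 in CL (2 to 15, and 7 to 27 with 1 library left out) and 8 in MCAO (4 to 12, and 7 to 40), and for the interaction 1 (0 to 1, and 1 to 16).

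Of 5 same-numbered pairs of CL and MCAO libraries, 1 deviated together (correlations 0.32 and -0.14 in Cort+/+ and -0.06, -0.24 and 0.03 in Cort-/- mice), so the numbers were not taken as pairs. Differently numbered libraries reached up to 0.27 in Cort+/+ and 0.40 in Cort-/- mice. For CL replicates 1, 2 and 3 of Cort+/+ mice the highest were MCAO replicates 3 (0.27), 2 (0.32) and 4 (0.27). For those of Cort-/- mice they were MCAO replicates 2 (0.23), 4 (0.38) and 5 (0.40). Each CL library thus had a different MCAO library as its highest. The main fit took all libraries as independent. Whether hemispheres of 1 animal stand under other numbers is not known, and no fit crossed the numbers. With the replicate number as a block, 3 members were called in Cort-/- mice, 3 over both genotypes and 0 in Cort+/+ mice, between genotypes and for the interaction, and all genes called in Cort-/- mice numbered 784. The correlation within blocks was -0.0045, so this fit hardly differed from the main one. It cannot show what sharing of animals between hemispheres would change.

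Of 2812 further values of single genes, 2635 kept direction and side of the threshold, 93 uncalled ones moved, 72 lost and 12 gained a call. The restriction to the groups compared could not be applied to the mean over genotypes or to the interaction. Slc11a1 rested on 77 to 300 reads a library.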
